A study of Mus musculus with 2 samples.

Results

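The 10 genes described here move ions and water across the colonic epithelium or control that movement. They were followed through single cells of chemically induced colorectal tumours from mice with and without deletion of Mtch2 in the intestinal epithelium. The genes were chosen by name, as 10 of the 32285 genes in the deposited matrices: Slc26a3, Car1, Car2, Car4 and Aqp8 for absorption, the peptide genes Guca2a and Guca2b, and Cftr, Slc12a2 and Kcne3 for chloride secretion. All 10 were found in both matrices, and 9 of them reached 10 CPM in the epithelial cells of at least 1 library (CPM is UMIs per 1000000 UMIs of the same cells, and a UMI is 1 counted RNA molecule).

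The cKO library came from Mtch2fl/fl VilCre mice, in which Cre recombinase under the Villin promoter recombines the floxed Mtch2 alleles in intestinal epithelium and leaves other cell types with intact alleles, and the WT library came from Mtch2fl/fl mice with no Cre. Both groups received AOM-DSS, in which the carcinogen azoxymethane is combined with dextran sulfate sodium, an agent that injures the colonic lining. The tumours of each genotype were pooled and dissociated with trypsin, so there is 1 library per genotype, the labels leave the number, age and sex of the mice unstated, and no test between genotypes can be made. Each difference below is a difference between 2 pooled libraries, and every 95% interval covers counting error only, not the spread between mice or tumours. Intervals of levels and ratios treat each UMI as independent, so they leave out the spread between cells as well and are too narrow where few cells hold most UMIs. Mtch2, an outer mitochondrial membrane gene and the target of the deletion, stood at 23.2 CPM in cKO and 93.8 CPM in WT epithelial cells. The log2 ratio was -2.01 (-2.09 to -1.94).

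The colonic surface absorbs salt and water. Its mature colonocytes exchange luminal chloride for bicarbonate through Slc26a3, with carbonic anhydrases supplying bicarbonate and protons from carbon dioxide, while crypt cells secrete chloride that enters through the basolateral cotransporter Slc12a2 and leaves through the apical channel Cftr. Guca2a and Guca2b encode guanylin and uroguanylin, secreted peptides that bind the receptor Gucy2c and raise cyclic GMP, which opens Cftr and curbs sodium uptake.

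The matrices held 6723 barcodes and 97364087 UMIs for cKO and 9445 barcodes and 116066712 UMIs for WT, of which 4406 and 7249 cells were kept. Epithelial cells were taken by a gate on 10 pan-epithelial genes and on low levels of blood and stromal markers. There were 1729 epithelial cells with 69590204 UMIs in cKO and 3083 with 92493974 UMIs in WT. Their median depth was 34439 UMIs per cell in cKO and 20557 in WT, so shares of cells with a UMI are given both as counted and at a matched depth of 5000 UMIs per cell. The epithelial cells were divided by marker genes, none of them among the 10, into absorptive colonocytes (216 cKO and 402 WT cells), Krt20 surface cells (143 and 231), goblet and Paneth-type cells (68 and 186), mitotic cells (190 and 310), stem cells marked by Lgr5, Ascl2 and other Wnt target genes (635 and 1187) and other epithelial cells (468 and 753). These classes are ranges of a marker score and not discrete types: 69 cKO and 125 WT cells lay within 20% of the absorptive cut, where 223 and 422 cells were past it. Gates for enteroendocrine and tuft cells caught at most 7 cells in a library, and squamous cells (47 in cKO, 4 in WT) were kept apart from the epithelial sums. The libraries shared 22 barcodes, 14 of them kept in both.

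All 5 absorptive genes had their highest level in the absorptive gate in both libraries, but they were not equally restricted to it. The exchanger gene Slc26a3 (ENSMUSG00000001225, chromosome 12, 31390871 to 31473917, plus strand, GRCm38) reached 57.7 CPM (95% Poisson interval 53.0 to 62.7) in cKO and 27.9 CPM (25.2 to 30.8) in WT absorptive colonocytes. The next class, the Krt20 surface cells, had 7.39 CPM in cKO and 10.3 CPM in WT, and its interval overlapped that of the goblet and Paneth-type cells in each library. Stem cells had 0.945 CPM in cKO and 0.445 CPM in WT. Gated leukocytes, which should lack the gene and so show the level that free RNA can give at their depth, had 3.39 CPM in cKO and 1.04 CPM in WT. Of the 36 UMIs in cKO leukocytes 21 lay in 1 cell. Without the highest cell of each library the level was 1.42 CPM in cKO and 0.742 CPM in WT. The stem cell values were thus below the leukocyte level either way. Leukocytes were shallower, with median depths of 7685.5 UMIs in cKO and 7608 UMIs in WT T cells. Stem cells had 36406 UMIs in cKO and 27228 UMIs in WT. Background at the depth of stem cells was not tested, so levels in CPM cannot decide whether the stem cell values exceed it. Of all epithelial Slc26a3 UMIs, 74.3% in cKO and 67.0% in WT lay in the absorptive gate.

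The promoter of Slc26a3 and that of the channel gene Cftr are shown because these 2 genes carry the absorptive and the secretory ends of chloride transport. Each window runs from 250 bases before to 50 after the transcription start in RefSeq on GRCm38.p6, with CpG dinucleotides in capitals. The Slc26a3 window (chr12:31437969-31438268, plus strand) starts inside the span given for the gene above and has 39.3% G and C and 1 CpG. The Cftr window (chr6:18170437-18170736, plus strand) has 71.3% G and C and 31 CpG. The median of 32851 RefSeq promoter windows of 300 bases is 52.7% and 7 CpG.
Slc26a3: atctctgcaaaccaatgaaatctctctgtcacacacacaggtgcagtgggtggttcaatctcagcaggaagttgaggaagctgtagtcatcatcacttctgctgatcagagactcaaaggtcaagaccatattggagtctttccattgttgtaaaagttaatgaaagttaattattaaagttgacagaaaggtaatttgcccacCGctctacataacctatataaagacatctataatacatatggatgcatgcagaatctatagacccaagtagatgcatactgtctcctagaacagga
Cftr: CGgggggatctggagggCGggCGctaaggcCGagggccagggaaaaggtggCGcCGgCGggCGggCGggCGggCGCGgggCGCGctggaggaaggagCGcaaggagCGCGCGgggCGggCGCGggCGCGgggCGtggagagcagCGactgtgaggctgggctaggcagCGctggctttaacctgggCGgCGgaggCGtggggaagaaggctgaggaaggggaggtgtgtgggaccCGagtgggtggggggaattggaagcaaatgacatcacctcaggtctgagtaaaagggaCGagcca

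Car1 was the most abundant absorptive gene. Car1 (ENSMUSG00000027556, chromosome 3, 14766216 to 14808368, minus strand) encodes a cytosolic carbonic anhydrase, and the absorptive gate held 47.3% of its UMIs in cKO and 68.5% in WT. It stood at 475 CPM (462 to 489) in cKO and 867 CPM (852 to 883) in WT absorptive colonocytes. In cKO the other epithelial cells came second at 207.5 CPM and the Krt20 surface cells had 132 CPM, while in WT the Krt20 surface cells came second at 384 CPM. Stem cells had 7.36 CPM in cKO and 16.9 CPM in WT, below the 12.4 CPM in cKO and 21.5 CPM in WT of gated leukocytes. Car1 in stem cells was therefore not above the leukocyte level in CPM in either library, and WT had the higher leukocyte level. Whether it was above the background of cells as deep as stem cells was not tested. Car2 (ENSMUSG00000027562, chromosome 3, 14886273 to 14900770, plus strand), the other cytosolic enzyme, lies 77904 bases from Car1 and was spread more widely. It stood at 291 CPM (280.1 to 302) in cKO and 244 CPM (236 to 252) in WT absorptive colonocytes, and at 147 and 152 CPM in mitotic and 51.5 and 49.7 CPM in stem cells of cKO and WT. Leukocytes had 37.8 CPM in cKO and 36.8 CPM in WT, with T cells, at 69.0 CPM in cKO and 47.1 CPM in WT, above the other large leukocyte classes.

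Car4 and Aqp8 were rare, and the absorptive gate held 78.6% of Car4 UMIs in cKO and 75.1% in WT and 75.7% and 75.9% of Aqp8 UMIs. Car4 (ENSMUSG00000000805, chromosome 11, 84957786 to 84966044, plus strand) encodes a carbonic anhydrase anchored to the outer face of the apical membrane. It stood at 82.9 CPM (77.2 to 88.9) in cKO and 22.4 CPM (19.98 to 25.02) in WT absorptive colonocytes, and at 0.740 CPM in cKO and 0.945 CPM in WT stem cells. Car4 was also present in the few endothelial cells, at 70.7 CPM in 40 cKO cells and 17.1 CPM in 31 WT cells, from 29 and 5 UMIs. Aqp8 (ENSMUSG00000030762, chromosome 7, 123462291 to 123468004, plus strand), a water channel gene of the colonic surface, had 21.4 CPM (18.5 to 24.5) in cKO and 8.80 CPM (7.31 to 10.5) in WT absorptive colonocytes. It rested on 203 UMIs in cKO and 123 in WT there, and in stem cells on 6 UMIs in cKO and 5 in WT. Its promoter window has 52.0% G and C and 6 CpG, and that of Car4 57.3% and 15 CpG. Promoter sequences of Car1 and Car2 were not used here.

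**Figure D1:**
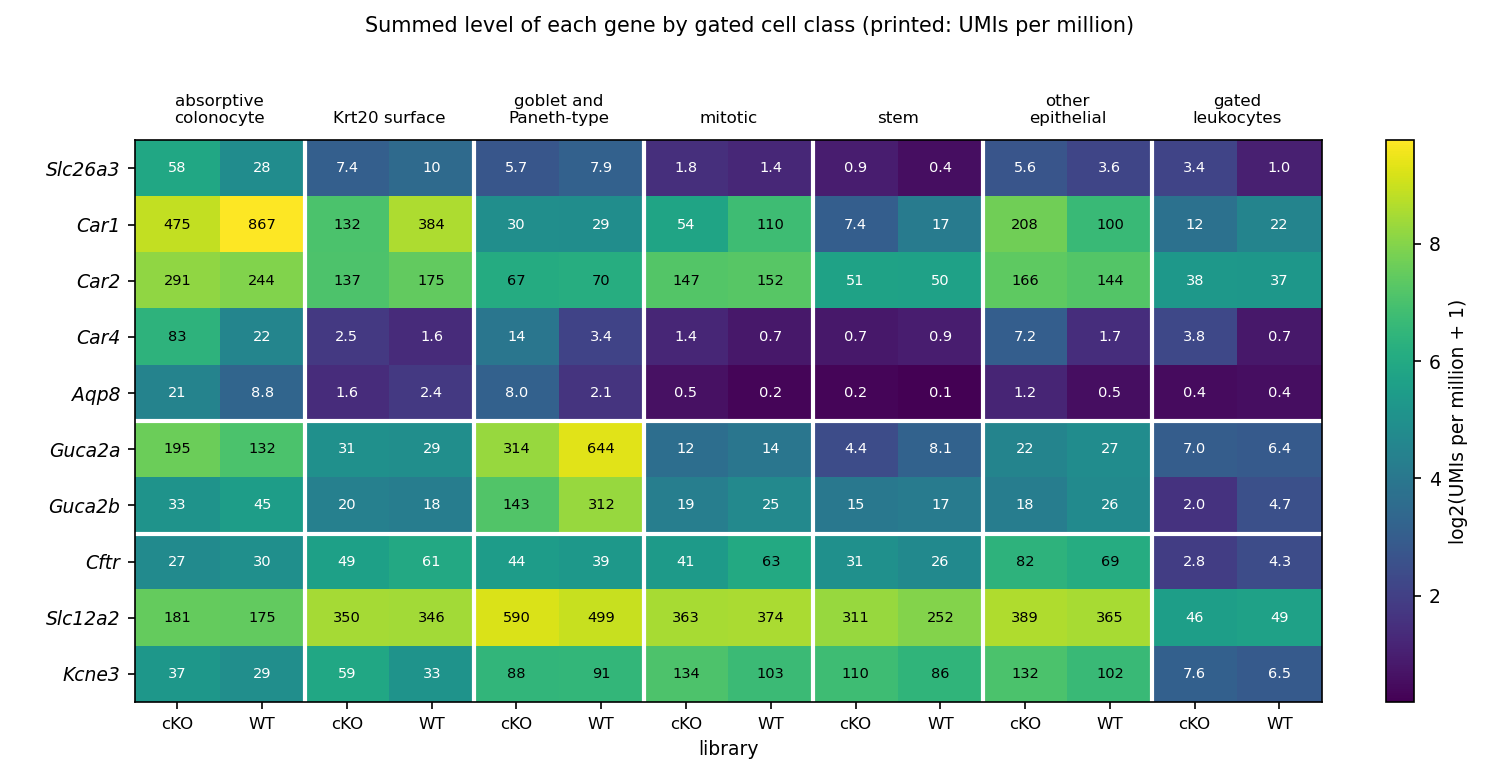
Summed level of each gene (rows, grouped as absorptive, peptide and secretory) in 6 epithelial classes and in gated leukocytes, cKO left of WT within each class. Colour is log2(CPM + 1) and the printed numbers are CPM: all 5 absorptive genes are highest in absorptive colonocytes, Guca2a and Guca2b peak in goblet and Paneth-type cells, and Slc12a2 is at 175 or more in every epithelial class.

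The guanylin peptides had their highest levels elsewhere, in the goblet and Paneth-type gate. Guca2a (ENSMUSG00000023247, chromosome 4, 119637704 to 119639471, plus strand) reached 314 CPM (295 to 334) in cKO and 644 CPM (625 to 665) in WT goblet and Paneth-type cells. Absorptive colonocytes came second in each library, at 195 CPM (186 to 204) in cKO and 132 CPM (126 to 139) in WT. Stem cells had 4.36 CPM in cKO and 8.09 CPM in WT, against 6.97 and 6.38 CPM in leukocytes of cKO and WT. Guca2b (ENSMUSG00000032978, chromosome 4, 119656607 to 119658954, minus strand) reached 143 CPM (130.3 to 157) in cKO and 312 CPM (298 to 326) in WT goblet and Paneth-type cells. Unlike guanylin it kept 15.2 CPM in cKO and 17.2 CPM in WT stem cells, over the 1.98 CPM in cKO and 4.75 CPM in WT of leukocytes. Among the 4 remaining classes of each library, Guca2b lay between 15.2 and 19.7 CPM in cKO and between 17.2 and 26.0 CPM in WT, with most neighbouring intervals overlapping.

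The peptide genes lie 17135 bases apart on opposite strands and were high together, so both promoters are shown, in the same layout. The Guca2a window (chr4:119637482-119637781, plus strand) has 56.3% G and C and 1 CpG, and the Guca2b window (chr4:119658896-119659195, minus strand, printed 5′ to 3′ of the gene) has 56.0% and 1 CpG. Motifs searched on both strands were TTTATG for CDX factors, CTTTGAT for TCF and LEF factors and CAAAGTNCA for HNF4, which occur in 11.9%, 3.73% and 1.41% of all windows. None of these letters was found in the windows of Slc26a3, Car4, Aqp8, Guca2a, Guca2b, Cftr or Kcne3.
Guca2a: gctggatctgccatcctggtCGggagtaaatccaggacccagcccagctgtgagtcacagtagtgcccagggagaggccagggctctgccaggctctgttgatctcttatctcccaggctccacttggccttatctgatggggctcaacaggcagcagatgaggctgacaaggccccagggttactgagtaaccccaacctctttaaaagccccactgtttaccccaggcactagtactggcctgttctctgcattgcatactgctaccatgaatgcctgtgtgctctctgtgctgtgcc
Guca2b: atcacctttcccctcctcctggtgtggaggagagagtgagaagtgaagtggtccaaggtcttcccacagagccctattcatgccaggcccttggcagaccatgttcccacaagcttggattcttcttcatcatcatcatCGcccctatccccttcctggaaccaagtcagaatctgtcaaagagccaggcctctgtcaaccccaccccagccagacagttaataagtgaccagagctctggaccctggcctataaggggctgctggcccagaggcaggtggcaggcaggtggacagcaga

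The secretory genes were low in the absorptive gate, with absorptive colonocytes lowest or next to lowest of the 6 classes. Their order was not the reverse of the absorptive genes, because stem cells were also lowest or next to lowest for Slc12a2 and Cftr. Slc12a2 (ENSMUSG00000024597, chromosome 18, 57878678 to 57946821, plus strand), which loads chloride into the cell together with sodium and potassium, was the most abundant of the 10 genes. It stood at 589.6 CPM (563 to 617) in cKO and 499 CPM (482 to 517) in WT goblet and Paneth-type cells. Absorptive colonocytes were lowest, at 181 CPM (173 to 190.1) in cKO and 175 CPM (168 to 182) in WT. Leukocytes had 46.0 CPM in cKO and 49.2 CPM in WT.

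Kcne3 (ENSMUSG00000035165, chromosome 7, 100176502 to 100184869, plus strand) encodes a small subunit that holds the Kcnq1 potassium channel open and so maintains the driving force for chloride exit. It was highest in mitotic cells, at 134 CPM (127 to 141) in cKO and 103 CPM (97.8 to 109) in WT, and its interval there overlapped that of the other epithelial cells. Absorptive colonocytes were lowest, at 36.9 CPM (33.1 to 40.9) in cKO and 29.4 CPM (26.6 to 32.4) in WT. Cftr (ENSMUSG00000041301, chromosome 6, 18170687 to 18322768, plus strand), the cyclic AMP and cyclic GMP regulated chloride channel, was highest in the other epithelial cells, at 82.2 CPM (78.0 to 86.5) in cKO and 69.1 CPM (65.5 to 72.8) in WT. In WT this interval overlapped that of mitotic cells, at 63.1 CPM (58.8 to 67.8). Cftr stood at 26.5 CPM (23.4 to 30.02) in cKO and 30.3 CPM (27.4 to 33.3) in WT absorptive colonocytes, and at 31.2 CPM in cKO and 25.7 CPM in WT stem cells.

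Set against stem cells of the same library, the absorptive colonocytes separated the groups of genes. The background is the share of all measured genes at least 2-fold higher in absorptive colonocytes, 12.7% in cKO and 12.5% in WT, and at least 2-fold lower, 29.9% in cKO and 29.5% in WT. All 5 absorptive and both peptide genes were at least 2-fold higher in absorptive colonocytes in each library, Aqp8 in WT below the 10 CPM that counts as measured. Car4 had the largest log2 difference in cKO, 6.77 (6.14 to 7.57), against 4.55 (4.05 to 5.12) in WT. Car1 was 6.01 higher in cKO and 5.68 higher in WT, Slc26a3 5.90 and 5.93, Aqp8 6.33 and 5.85, and Guca2a 5.47 and 4.03. The stem cell levels of these 5 genes were near or below the leukocyte level in CPM, so the size of the differences may rest on background. How far it does was not tested, and leukocytes were shallower than stem cells. Car2 was 2.50 higher in cKO and 2.29 in WT, and Guca2b 1.13 and 1.39. Kcne3 was the only member at least 2-fold lower in absorptive colonocytes, with -1.57 (-1.74 to -1.41) in cKO and -1.55 (-1.70 to -1.40) in WT. Slc12a2 had -0.78 in cKO and -0.53 in WT, and Cftr -0.23 (-0.44 to -0.03) in cKO and 0.24 (0.07 to 0.40) in WT. The order of these last genes depended on how cells were grouped: with clusters in place of the gates, Cftr was higher on the absorptive side by 2.30 in cKO and 1.74 in WT, and Slc12a2 had 0.04 in cKO and -0.12 in WT.

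Apart from Car2, the absorptive genes had 50% of their UMIs in few cells, though Car1 had a UMI in 497 cKO and 1263 WT epithelial cells. The 5 highest cKO cells and the 6 highest WT cells carried 50% of all epithelial Car4 UMIs, with up to 169 UMIs in a cKO cell and 74 in a WT cell. For Slc26a3 the number was 11 cells in cKO and 23 in WT, for Aqp8 9 and 7, and for Car1 12 and 38, where the highest cKO cell held 979 UMIs and the highest WT cell 1310. The other genes were spread over more cells: Car2 took 101 cells in cKO and 178 in WT, Guca2a 25 and 50, Guca2b 70 and 65, Cftr 62 and 99, Kcne3 156 and 216, and Slc12a2 185 and 284. Cells with at least 5 UMIs of Slc26a3 numbered 35 in cKO and 37 in WT, and those of Car4 35 and 15. The Slc26a3 cells were deep, with medians of 50529 UMIs in cKO and 45865 UMIs in WT, whereas the Car4 cells, at 22466 UMIs in cKO and 18130 UMIs in WT, were below the epithelial median of their library.

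At matched depth the share of cells with a UMI did not always follow the level: in absorptive colonocytes Guca2a, higher in cKO by level, had a UMI in 25.8% of cells (19.8 to 32.2) in cKO and 28.6% (24.2 to 33.6) in WT. In absorptive colonocytes Slc26a3 had a UMI in 13.7% of cells (95% Clopper-Pearson interval 9.37 to 19.3) in cKO and 8.94% (6.34 to 12.4) in WT, against 0.770% and 0.488% of leukocytes. As counted, at median depths of 37269 UMIs in cKO and 30009 UMIs in WT, the shares were 23.6% and 18.9%. Car4 had a UMI in 13.4% (8.95 to 18.8) of cKO and 4.35% (2.45 to 6.82) of WT absorptive colonocytes, against 0.721% and 0.342% of leukocytes, and the intervals did not overlap. As counted the Car4 shares were 17.6% in cKO and 7.71% in WT. Car1 had a UMI in 44.9% (37.9 to 52.0) of cKO and 59.2% (54.2 to 64.3) of WT absorptive colonocytes, against 6.66% and 10.2% of leukocytes. Guca2a was found at matched depth in 63.0% (49.6 to 76.2) of cKO and 78.3% (70.4 to 85.0) of WT goblet and Paneth-type cells, with overlapping intervals. Over all epithelial cells Slc12a2 was found in 61.7% of cKO and 60.8% of WT cells at matched depth, against 19.5% and 18.6% of leukocytes, and Kcne3 in 29.9% (27.6 to 32.4) and 23.8% (22.1 to 25.5), against 3.91% and 2.94%. The matched values left out 295 cKO and 693 WT epithelial cells with fewer than 5000 UMIs.

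**Figure D2:**
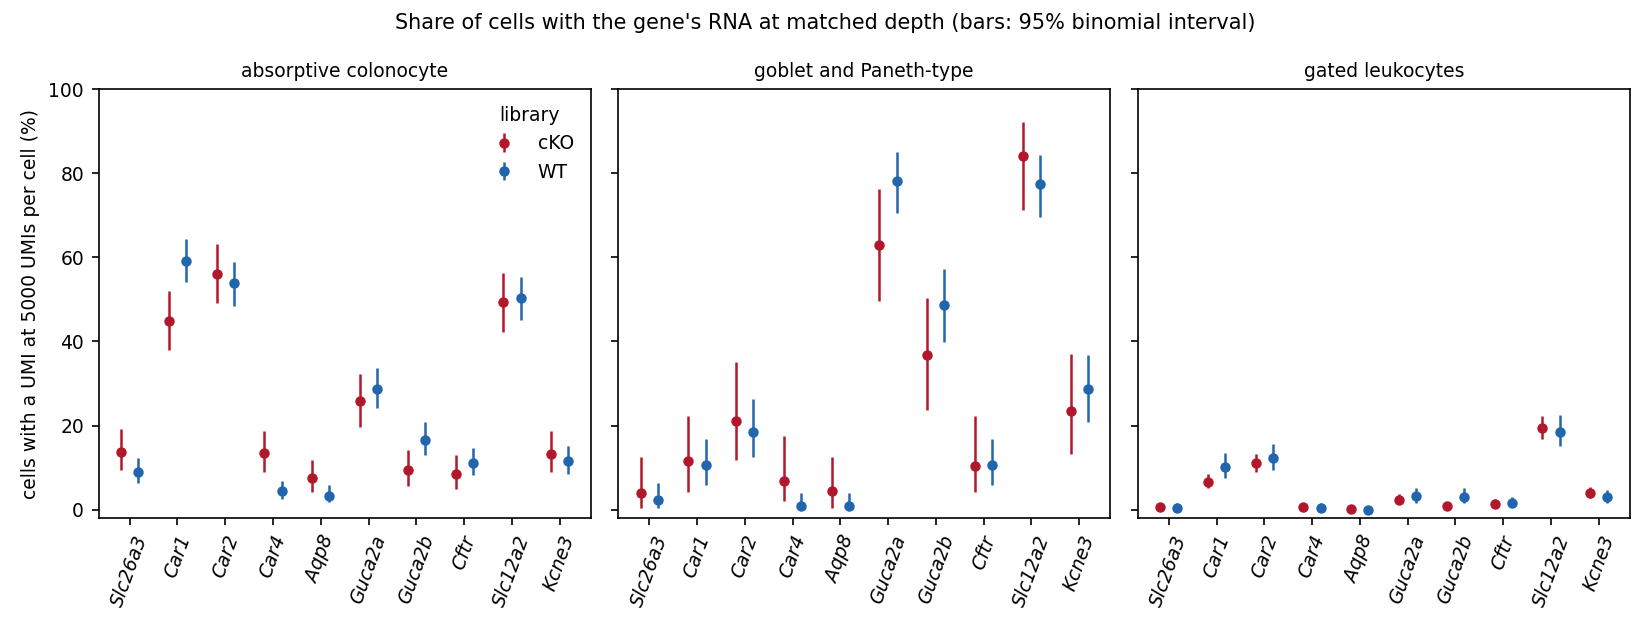
Share of cells with at least 1 UMI of each gene at a matched depth of 5000 UMIs per cell (y axis, %), cKO left of WT, in absorptive colonocytes, goblet and Paneth-type cells and gated leukocytes. Points are shares and bars are 95% Clopper-Pearson intervals. Car4 and Car1 are the 2 genes of absorptive colonocytes whose cKO and WT intervals do not overlap, with Car4 higher and Car1 lower in cKO.

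Cells high in Slc26a3 or Aqp8 were often high in another absorptive gene or in Guca2a, while Cftr-high cells were mostly Slc12a2-high. Of the Slc26a3-high cells, meaning those with at least 5 UMIs, 74.3% in cKO and 78.4% in WT were also Guca2a-high, where 6.82% of all cKO and 7.91% of all WT epithelial cells were. Car1-high cells made up 57.1% of the Slc26a3-high cells in cKO and 70.3% in WT, against 9.54% and 10.7% of all epithelial cells. Of 15 Aqp8-high cKO cells, 11 were also Car4-high, against 2.02% of all cKO epithelial cells. In WT 2 of 7 Aqp8-high cells were, against 0.487% of all. In the secretory group, 89.5% of 191 Cftr-high cells in cKO and 90.0% of 250 in WT were Slc12a2-high, against 51.1% and 40.4% of all epithelial cells. Kcne3-high cells were 66.5% of the Cftr-high cells in cKO and 58.4% in WT, against 28.3% and 17.2% of all. No Cftr-high cell in cKO and 1 in WT was Car4-high, where 2.02% of all cKO and 0.487% of all WT epithelial cells were. The WT share of the Cftr-high cells, 0.4%, was thus near that of all cells. Deep cells pass the limit of 5 UMIs for any gene more easily, so part of any overlap follows depth.

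**Figure D3:**
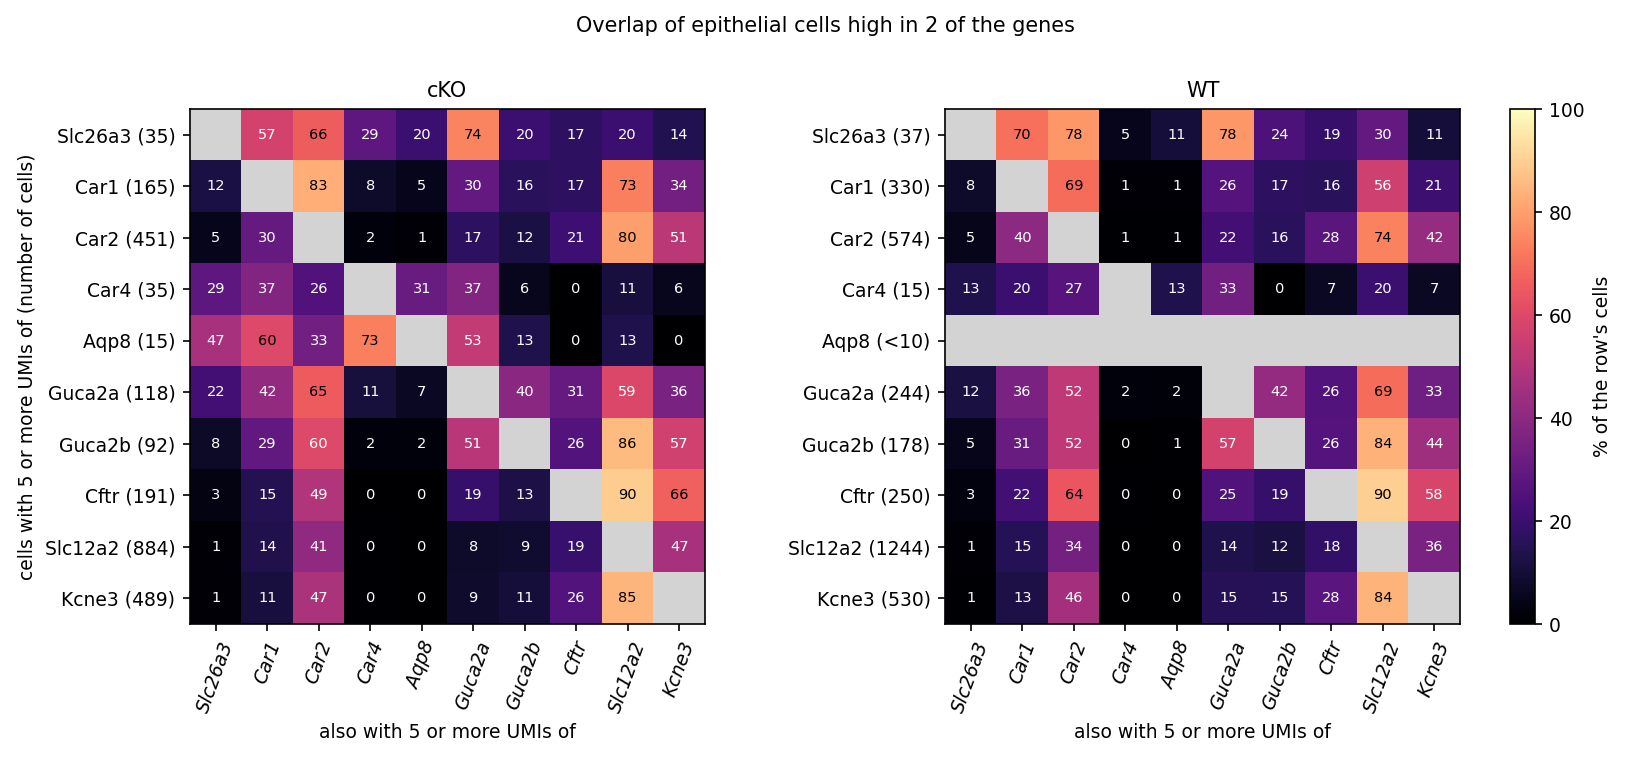
Percentage of the cells high in the gene of each row (5 or more UMIs, number of cells in parentheses) that are also high in the gene of each column, for cKO (left) and WT (right). Rows with fewer than 10 cells are grey. Slc26a3-high cells are Guca2a-high in 74.3% of cases in cKO and 78.4% in WT, and Cftr-high cells are Slc12a2-high in 89.5% of cases in cKO and 90.0% in WT.

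Clustering without the 10 genes placed most cells of the absorptive gate in 2 clusters. Cluster 4, led by Ly6m, Saa1, Clca4b and Krt20, held 252 cKO and 369 WT cells, and cluster 16, led by Sycn, Hao2, Gsdmc4, Slc5a8 and Aqp4, held 84 and 92. Of the cells in the absorptive gate, 74.1% in cKO and 67.2% in WT lay in cluster 4 and 19.9% and 14.2% in cluster 16. Slc26a3 was concentrated in cluster 16, at 106 CPM (96.0 to 116) in cKO and 90.3 CPM (80.6 to 101) in WT, against 25.9 and 9.72 CPM in cluster 4. Car4 had the opposite distribution, at 83.7 CPM (78.2 to 89.5) in cKO and 24.8 CPM (22.1 to 27.7) in WT cluster 4, against 25.5 and 4.89 CPM in cluster 16. In cluster 16 Guca2a was at 364 CPM in cKO and 294 CPM in WT, against 81.1 CPM in cKO and 81.5 CPM in WT for cluster 4.

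Cftr was also high in the Slc26a3-rich cluster 16, at 117 CPM (106 to 128) in cKO and 128 CPM (117 to 141) in WT, against 16.5 CPM in cKO and 23.4 CPM in WT in cluster 4. The shallow cluster 6, mainly Krt20 surface cells with a median of 4277 UMIs, had 125 CPM (101 to 154) in cKO and 96.4 CPM (82.0 to 113) in WT. Within cluster 16, 23 cells of each library were Slc26a3-high and 27 cKO and 33 WT cells were Cftr-high, and 4 cKO and 5 WT cells were both. In the mitotic cluster 3, Slc12a2 stood at 549.9 CPM in cKO and 486 CPM in WT, Kcne3 at 166 and 134 CPM and Cftr at 92.5 and 90.8 CPM. Clusters 1 and 2, which hold mainly cells of the stem gate, had Cftr at 12.2 and 7.16 CPM in cKO and 18.1 and 7.71 CPM in WT.

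**Figure D4:**
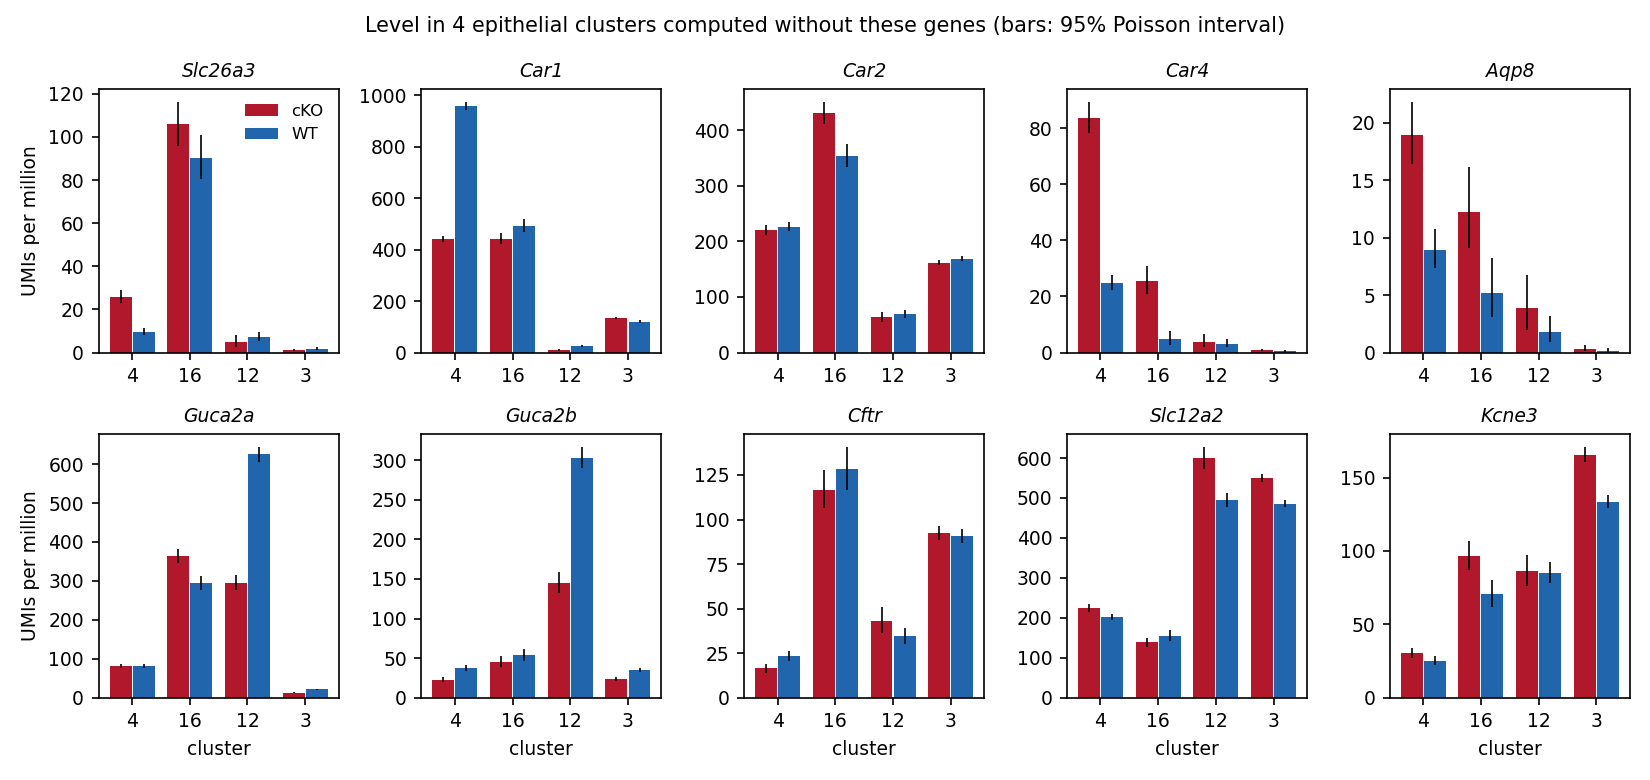
Level of each gene (y axis, CPM; cKO red and left, WT blue and right) in clusters 4 and 16 (absorptive), 12 (goblet and Paneth-type) and 3 (mitotic), which were computed without the 10 genes. Bars are summed levels and lines 95% Poisson intervals. Of these 4 clusters, Slc26a3 and Cftr are both highest in cluster 16, and Car1 and Car4 differ in opposite directions between cKO and WT in cluster 4.

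Between the libraries, the absorptive genes did not move as a group. Over all epithelial cells, 2 of the 9 measured members were at least 1.5-fold higher in cKO (Slc26a3 and Car4), where 0.81% of 9382 measured genes were, and 1 was at least 1.5-fold lower (Guca2b), where 1.19% were. Slc26a3 stood at 10.6 CPM in cKO and 6.29 CPM in WT, a log2 ratio of 0.75 (0.59 to 0.91), and Car4 at 14.4 and 4.51 CPM, a ratio of 1.67 (1.51 to 1.84). Car1 was lower, at 137 CPM in cKO and 191 CPM in WT, a log2 ratio of -0.48 (-0.52 to -0.45). Car2 had 134 CPM in cKO and 119 CPM in WT, a log2 ratio of 0.17 (0.13 to 0.21). Aqp8, below 10 CPM in each library, had 3.85 CPM in cKO and 1.75 CPM in WT, a ratio of 1.13 (0.85 to 1.43). The median ratio of the 5 absorptive genes was 0.75 and that of all measured genes -0.02.

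The peptides were lower and the secretory genes differed little. Guca2a stood at 51.5 CPM in cKO and 75.4 CPM in WT, a log2 ratio of -0.55 (-0.61 to -0.49), and Guca2b at 24.9 and 44.2 CPM, a ratio of -0.82 (-0.91 to -0.74). Slc12a2 had 337 CPM in cKO and 302 CPM in WT (log2 ratio 0.16, 0.13 to 0.18), Cftr 47.0 and 43.1 CPM (0.13, 0.06 to 0.19) and Kcne3 106 and 81.6 CPM (0.38, 0.33 to 0.42). The median ratio was 0.16 for the 3 secretory genes.

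Within the absorptive gate the split was wider. There 3 members were at least 1.5-fold higher in cKO (Slc26a3, Car4 and Aqp8), against 1.91% of 8276 measured genes, and 1 was at least 1.5-fold lower (Car1), against 3.08%. The log2 ratios were 1.05 (0.86 to 1.24) for Slc26a3, 1.89 (1.70 to 2.08) for Car4, 1.28 (0.95 to 1.61) for Aqp8 and -0.87 (-0.92 to -0.82) for Car1. The gate's own markers had medians of 130 UMIs per 10000 in cKO and 141 in WT cells, Krt20 surface markers 32.7 and 37.9, and the mitochondrial share was 8.29% and 6.57%. The part of these differences in the result was not tested. In cluster 16 the Car1 levels were close, at 442 CPM (421 to 463) in cKO and 493 CPM (470 to 517) in WT, while cluster 4 had 440.2 CPM (427 to 453) in cKO and 958 CPM (941 to 975) in WT.

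The summed level of Car1 differed the other way in the cells that passed no subtype gate. In the other epithelial cells it stood at 207.5 CPM in cKO and 100.2 CPM in WT by sum, a log2 ratio of 1.05 (0.97 to 1.13), where 1.17% of all measured genes were at least 1.5-fold higher in cKO and 2.45% at least 1.5-fold lower. A single cKO cell held 979 of the 3653 Car1 UMIs of that class, and without the highest cell of each library the levels were 153 CPM in cKO and 89.1 CPM in WT. The share of these cells with a UMI went the other way, at 29.1% in cKO and 40.2% in WT as counted and 12.2% and 19.1% at matched depth. So did female cells, at 55.0 CPM in cKO and 149 CPM in WT, against 225 and 83.8 CPM in male cells. With each epithelial cell weighted equally the overall log2 ratio of Car1 was -0.93, and with equal weights of the 6 subtypes -0.73.

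The other classes added differences in Kcne3, Cftr and Car1. Kcne3 was higher in cKO in 5 of the 6 classes with intervals above 0, with log2 ratios of 0.83 (0.50 to 1.16) in Krt20 surface, 0.37 in mitotic, 0.35 in stem, 0.38 in other epithelial and 0.33 in absorptive cells. In goblet and Paneth-type cells its ratio was -0.05 (-0.26 to 0.16). Cftr was lower in cKO mitotic cells, at 41.0 CPM against 63.1 CPM in WT, a ratio of -0.62 (-0.79 to -0.45), and higher in cKO stem cells, with a ratio of 0.28 (0.14 to 0.42). The stem ratio of Cftr was 1.22 (0.93 to 1.51) in female and -0.22 (-0.44 to -0.0052) in male cells, and in clusters 1 and 2 Cftr was not higher in cKO. In the mitotic cluster 3 Cftr did not differ beyond its intervals. Car1 was lower in cKO in Krt20 surface cells, with a ratio of -1.53 (-1.69 to -1.39), and in mitotic cells, with -1.01 (-1.16 to -0.87). In cluster 3, which held 76.8% of the mitotic gate in cKO and 67.1% in WT, Car1 was higher in cKO, at 135 CPM (130.4 to 139.9) against 120.2 CPM (116 to 125) in WT. However, only 37.9% of the cells of cluster 3 had passed the mitotic gate. Cells of this cluster with at least 5 Car1 UMIs were fewer in cKO, 44 against 77 in WT. Of all measured genes, 9.6% were at least 1.5-fold lower and 4.53% at least 1.5-fold higher in cKO Krt20 surface cells. The shares were 2.32% lower and 1.05% higher in mitotic cells, and 1.52% lower and 1.25% higher in stem cells. Slc12a2 had 311 CPM in cKO and 252 CPM in WT stem cells, a ratio of 0.31 (0.26 to 0.35), and differed by less than 0.05 in Krt20 surface and mitotic cells. Stem cells were divided differently over the clusters, with 32.1% in cKO and 51.1% in WT in cluster 1 and 38.4% and 23.7% in cluster 2. Within each of these Slc12a2 was lower in cKO, with 174 CPM in cKO and 199.97 CPM in WT for cluster 1 and 200.1 CPM in cKO and 215 CPM in WT for cluster 2.

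Guca2a was lower in cKO goblet and Paneth-type cells, with a log2 ratio of -1.04 (-1.14 to -0.94), and higher in cKO absorptive colonocytes, with 0.56 (0.46 to 0.65). The absorptive ratio was 2.19 (2.02 to 2.37) in female and -0.33 (-0.46 to -0.19) in male cells, and cluster 4, which holds most of that gate, had close levels. Guca2b was lower in both, with -1.12 (-1.27 to -0.97) and -0.43 (-0.64 to -0.24). In cKO 51.6% of the epithelial Guca2a UMIs lay in absorptive colonocytes and 27.5% in goblet and Paneth-type cells, against 26.5% and 57.3% in WT. These 2 were the members at least 1.5-fold lower in cKO goblet and Paneth-type cells, of 8 measured, against 4.68% of 9359 measured genes. Car4, at 14.3 CPM in cKO and 3.38 CPM in WT, was the 1 member higher, against 5.45%. It rested on 45 UMIs in 5 cKO cells and 21 UMIs in 6 WT cells, with 15 of the latter in 1 cell. The 10 female cKO cells had 25 Car4 UMIs and the 45 female WT cells 0, and male cells had a ratio of 0.71 (-0.27 to 1.69). Goblet markers had medians of 188 UMIs per 10000 in cKO and 187 in WT cells of this gate, but Paneth-type markers 54.0 in cKO and 102 in WT. The part of that makeup in the peptide difference was not tested.

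Cells could be assigned to female or male mice from Xist and Y-linked genes, and the differences between libraries were not the same in the 2 sexes. The labels give no sex, and each pool held cells of both: 277 female and 1045 male epithelial cells in cKO, and 957 and 1138 in WT. The rest of the 1729 cKO and 3083 WT epithelial cells had neither signal or both and are absent from values by sex. In WT, 3446 Car1 UMIs lay in female and 7558 in male cells, of 17700 in all epithelial cells. Assignment needs a detected Xist or Y-linked RNA, and the libraries differed in depth. In female cells Car4 stood at 23.0 CPM in cKO and 1.29 CPM in WT, a log2 ratio of 4.13 (3.61 to 4.74), and in male cells at 11.3 and 8.57 CPM, a ratio of 0.40 (0.19 to 0.61). In the absorptive gate Car4 had 171 UMIs in 40 female cKO cells and 13 UMIs in 125 female WT cells, 112 and 2.83 CPM, while male cells had 59.1 CPM in cKO and 53.8 CPM in WT (133 and 144 cells). Aqp8 had a like pattern there, at 28.8 CPM in cKO and 3.48 CPM in WT female cells and at 19.3 and 18.5 CPM in male cells. Car1 in the absorptive gate was close in female cells, at 466 CPM in cKO and 487 CPM in WT, and differed in male cells, at 448 CPM in cKO and 1245 CPM in WT. Slc26a3 was higher in cKO in each sex of that gate, at 75.2 and 21.7 CPM in female and 61.6 and 29.6 CPM in male cells of cKO and WT. Kcne3 had like ratios in the whole epithelium, 0.46 in female and 0.41 in male cells. Sex marks which mice a cell can come from, so effects of sex and of single animals or tumours cannot be told apart here.

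**Figure D5:**
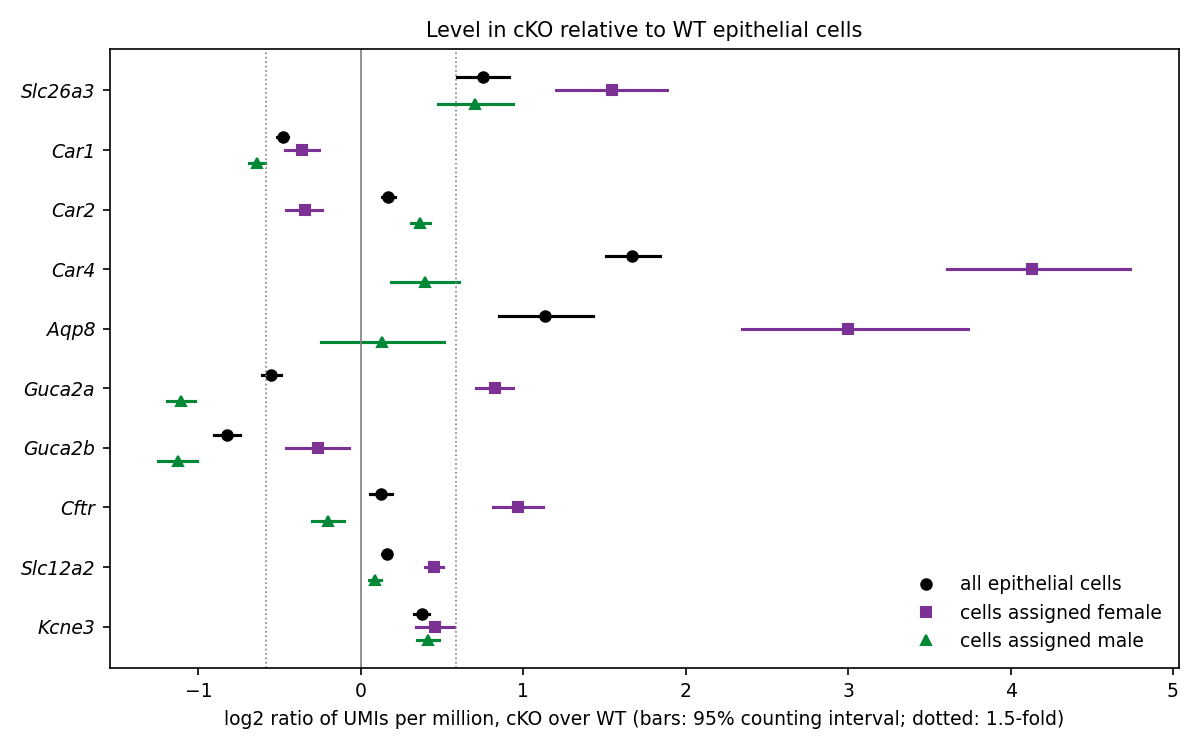
Log2 ratio of CPM, cKO over WT (x axis), for each gene in all epithelial cells (black), cells assigned female (purple) and cells assigned male (green). Lines are 95% counting intervals, and dotted lines mark 1.5-fold. Car4 has ratios of 4.13 in female and 0.40 in male cells, and Guca2a, Cftr and Car2 lie on opposite sides of 0.

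Some other genes of the transport pathway also differed by at least 1.5-fold between the libraries. Of 9382 measured genes, 0.81% were that much higher in cKO and 1.19% that much lower. Of 15 further absorptive genes 10 were measured in epithelial cells. Fxyd4, a small membrane protein that regulates ion transport, was higher, at 48.9 CPM in cKO and 32.5 CPM in WT (log2 ratio 0.59), and Atp12a, the colonic proton and potassium pump, was lower, at 23.0 and 34.6 CPM (-0.59). Of 8 further secretory genes 6 were measured, and the bicarbonate cotransporter gene Slc4a4 was lower, at 95.1 CPM in cKO and 149 CPM in WT (-0.64). Of 10 receptors and regulators 9 were measured, and Prkg2, a kinase activated by cyclic GMP, was lower, at 53.2 CPM in cKO and 80.8 CPM in WT (-0.60). Gucy2c, the receptor of both peptides, had 50.1 CPM in cKO and 44.7 CPM in WT (0.16). The median log2 ratios were -0.02 for the absorptive list, -0.12 for the secretory list and -0.02 for the receptors and regulators.

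Across 22 groups of cell class and library with at least 50 cells, the levels of the 10 genes were also compared with those of all genes that reached 50 CPM in any group. Groups of 1 library share its pool and free RNA, and the correlations describe these groups only. The genes most like Slc26a3 in log2(CPM + 1) were Ces2c (Pearson r = 0.904), Cutal and Ces2e, and those most like Aqp8 were Saa1 (0.932), Ces2e and Slc44a4. Car4 was closest to Saa1 (0.807), Ces2e and Hbb-bt, Car1 to Gsdmc2 (0.965), Mgat4c and Tmem253, and Car2 to Dapk2 (0.930), Plek2 and Myl7. Guca2a was closest to Sult1d1 (0.909), Klk1 and Oit1, and Guca2b to Agr2 (0.937), which is itself a marker of the goblet gate, Lgals2 and Reg3g. Cftr was closest to Myo7b (0.973), Kcnk1 and Chmp4c, Slc12a2 to Nipal2 (0.970), Pawr and Arhgef38, and Kcne3 to Ttr (0.955), Hoxb9 and Ugt2b34. Among the members, Cftr and Slc12a2 were most alike (0.917), followed by Cftr and Kcne3 (0.894) and by Guca2a and Guca2b (0.879), while Car4 and Kcne3 were least alike (0.027).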

How the data were processed

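Single cells of pooled tumours were measured by droplet RNA sequencing, with 1 library per genotype. The deposited matrices hold unnormalized UMI counts per gene and barcode. Per the file headers they are output of Cell Ranger 7.2.0, and mm10 and Seurat 3.0 appear in the submitters' processing notes.

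From these counts, barcodes with fewer than 500 genes, over 25% mitochondrial UMIs or marked as doublets (scrublet, at an expected 0.8% per 1000 barcodes) were left out. Epithelial subtypes were gated per cell on UMIs of marker lists per 10000, above 2000 UMIs per cell, with limits set from the marker scores without the 10 genes. Leiden clusters (scanpy 1.11.5, leidenalg 0.10.2) used 2000 variable genes without the 10 genes and at resolution 1. UMIs were summed per class and library and given as CPM, with exact Poisson intervals, Clopper-Pearson intervals for shares and conditional binomial intervals for ratios (prior 0.5 counts, scipy 1.17.1). Shares at matched depth are the expected share of cells with at least 1 UMI after drawing 5000 UMIs per cell. A gene counts as measured at 10 CPM in either library. Folds and intervals were tested on simulated counts. Coordinates are from GENCODE M21 (GRCm38). The 10 genes, the lists and the rule for likeness (the 3 genes with the highest correlation) were chosen with earlier results of these data known, and of the other transport genes those past 1.5-fold are named. Depth, weighting, scaling, gate and sex of the cells were varied as alternatives. The result of 1 further gene list is not reported here.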

Additional observations from a re-analysis of the deposited data

Results flagged for a closer look

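For 3 genes the cKO and WT libraries differed in opposite directions in cells assigned female and cells assigned male, and this difference between the sexes was not tested. Guca2a had a log2 ratio, cKO over WT, of 0.82 in female epithelial cells, at 114 CPM in cKO and 64.4 CPM in WT, and of -1.11 in male cells, at 38.5 and 83.0 CPM. Cftr had a ratio of 0.97 in female cells, at 66.7 CPM in cKO and 34.1 CPM in WT, and of -0.20 in male cells, at 40.4 and 46.5 CPM. Car2 had a ratio of -0.35 in female cells, at 96.8 CPM in cKO and 123 CPM in WT, and of 0.37 in male cells, at 145 and 112 CPM. Within goblet and Paneth-type cells Guca2a was lower in cKO in both, with -0.83 from 10 cKO and 45 WT female cells and -1.27 from 33 cKO and 70 WT male cells. In absorptive colonocytes Guca2a had 2.19 from 40 cKO and 125 WT female cells and -0.33 from 133 cKO and 144 WT male cells.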

How the results depend on the processing

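No paired analysis was possible because there is 1 library per genotype, and no library could be left out. All 10 log2 ratios between libraries stayed within their counting interval with doublets kept and with median-of-ratios scaling. They also did with clusters in place of the epithelial gate, and 9 did with all deposited barcodes. With totals without mitochondrial, ribosomal, haemoglobin and immunoglobulin genes 8 did, and with equal subtype weights 6. As a mean over cells 5 stayed within it, with a stricter epithelial gate 3, in male cells 2 and in female cells 0. Equal subtype weights turned Cftr to -0.071. Female cells turned Car2 to -0.35 and Guca2a to 0.82, and male cells turned Cftr to -0.20. With clusters in place of the gates, the cKO difference between absorptive and stem cells turned to 2.30 for Cftr and 0.044 for Slc12a2. The median ratio of the absorptive genes (0.75) was 0.92 with a stricter epithelial gate, 1.54 in female and 0.37 in male cells. That of the secretory genes (0.16) was 0.20 as a mean over cells, 0.12 with equal subtype weights, 0.20 with totals without mitochondrial, ribosomal, haemoglobin and immunoglobulin genes, 0.23 with the stricter gate, 0.46 in female and 0.088 in male cells. The number of genes at least 1.5-fold higher (2) was 4 in female cells, 1 in male cells and 3 with no minimum level, and the number lower (1) was 2 as a mean over cells, 2 with equal subtype weights, 0 in female and 3 in male cells. Over all epithelial cells the shares of cells with a UMI were lower at matched depth for all 10 genes, while in WT goblet and Paneth-type cells Guca2a had 75.8% as counted and 78.3% at matched depth. Chosen after seeing the data, leaving out the highest leukocyte took the cKO leukocyte level of Slc26a3 to 1.42 CPM and of Car4 to 2.27 CPM. The cause of the changes in the ratios and in the numbers of genes past 1.5-fold was not tested. Depth limits Aqp8 most, with 268 epithelial UMIs in cKO and 162 in WT.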

Other observations

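Outside the epithelium, Car2 and Slc12a2 were also found in other cell types. Car2 stood at 591 CPM in 15 erythroid cKO cells, from 55 UMIs, and at 27.7 CPM in 8 erythroid WT cells, from 1 UMI. In dendritic cells it stood at 50.8 CPM (36.0 to 69.8) in cKO and 106 CPM (80.6 to 138) in WT. Slc12a2 stood at 168 CPM (131 to 213) in cKO and 96.1 CPM (63.8 to 139) in WT endothelial cells, above the 46.0 CPM in cKO and 49.2 CPM in WT of all gated leukocytes.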
